A study of Mus musculus with 12 samples.

Results

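Of the 16189 β-catenin summits called in DMSO-treated wild-type forelimb buds on chromosomes 1 to 19 and X, 829 were promoter summits, less than 1 kb from a transcript's start site (TSS) in the annotation, that fell outside every H3K27ac consensus peak. A summit is the base of highest coverage in a peak, and the whole consensus list held 16238 of them. The 829 summits were chosen by position alone, from the distance to the nearest TSS of GENCODE M21 on mm10 and from the H3K27ac consensus lists of both treatments, so their lack of an overlying H3K27ac peak is a description and no finding. Among all 2634 promoter summits of the list, the other 1805 lay inside an H3K27ac peak of at least 1 treatment.

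β-Catenin carries the canonical WNT signal to chromatin. When WNT ligands bind their receptors it escapes degradation, enters the nucleus and is held on DNA by TCF/LEF factors, whose sites share the core (A/T)TCAAAG. Acetylation of histone H3 at lysine 27 (H3K27ac) marks active promoters and enhancers, and at an active promoter it usually sits on the nucleosomes to either side of the start site, not on the nucleosome-depleted stretch between them. In the limb bud, WNT signals from the ectoderm and the apical ridge sustain outgrowth and keep the underlying mesenchyme proliferating and undifferentiated.

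The samples were pooled forelimb buds of wild-type Swiss Albino embryos whose mothers were injected at E10.5 with DMSO, which gave the wild-type controls, or with C59, which inhibits porcupine and so blocks the secretion of all WNT ligands. Buds were collected 6 h after injection. Chromatin immunoprecipitation sequencing (ChIP-seq) was done with an antibody against β-catenin, after an additional crosslink between proteins, and another against H3K27ac, with 2 replicates for each antibody and treatment and a peak list for each replicate and each consensus. A whole bud holds mesenchyme, ectoderm, vessels and incoming muscle and nerve cells, and a pool of buds cannot separate a weak mark in all cells from a strong mark in a few of them. All 7 fixed markers of forelimb bud mesenchyme, Prrx1, Tbx5 and Twist1 among them, had an H3K27ac consensus peak less than 1 kb from a TSS in both treatments, against 1 of 5 markers of ectoderm and apical ridge in wild-type controls and 0 of 5 after C59, and 0 of 3 neural markers in either. For endothelium the counts were 1 of 3 in wild-type controls and 2 of 3 after C59, for blood 0 and 1 of 3, for muscle precursors 2 of 3 in both and for the hindlimb genes 1 of 2 in both. Most ectoderm markers thus had no H3K27ac consensus peak less than 1 kb from a TSS in these pools. An unmarked promoter here is one unmarked in the pool as a whole.

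The absence of H3K27ac held at the summit itself but often not at the promoter. An H3K27ac consensus peak began less than 1 kb away for 436 of the 829 summits (52.6%, 95% Wilson interval 49.2 to 56%). At 106 (12.8%) such peaks flanked the summit on both sides, at 330 (39.8%) on one side, and at the others the nearest one was 1 to 10 kb away (105 summits, 12.7%) or over 10 kb away (288 summits, 34.7%). The edge of an H3K27ac peak was closer than 100 bp for 205 summits (24.7%), and 346 (41.7%) of the β-catenin peaks that held the summits overlapped an H3K27ac peak by at least 1 bp. They are therefore called promoter summits outside H3K27ac peaks below, and described by their distance to the mark. All such distances are to peaks of the consensus lists. With the lists of all 4 H3K27ac replicates, 195 summits were over 10 kb from every peak, and 18 of the 288 lay inside a replicate peak.

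**Figure D1:**
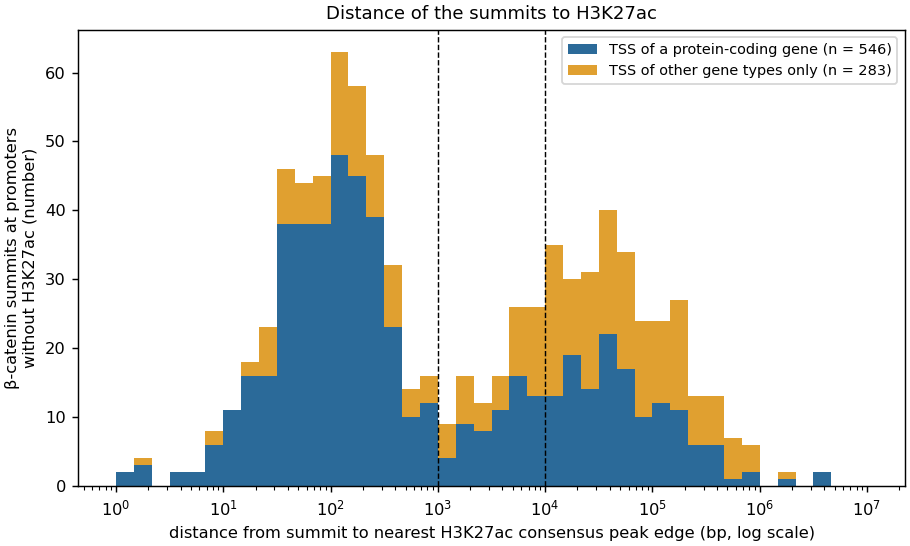
Number of promoter summits outside H3K27ac peaks (vertical axis) by distance from the summit to the nearest edge of an H3K27ac consensus peak of either treatment (horizontal axis, bp, log scale), stacked for the 546 summits near a TSS of a protein-coding gene and the 283 near a TSS of other gene types only. The distances form a group below 1 kb and another above 10 kb, and 349 of the 546 protein-coding summits but 87 of the 283 others lie below 1 kb.

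The sequences of summits that carried a TCF/LEF core are shown first, because this feature was not used to choose them. Each is the plus strand of mm10, 5′ to 3′, and capitals mark the core, ATCAAAG or TTCAAAG, on either strand (CTTTGAT and CTTTGAA are its reverse complements). Rnf220 and Disp1 are protein-coding genes with some of the highest summits, D230030E09Rik and Gm42449 lay over 10 kb from every H3K27ac consensus peak, and the others belong to genes of the WNT pathway or to homeobox genes. Windows of 120 bp are given, or 30 bp where the window touches a UTR.
Rnf220 (chr4:117272601-117272720): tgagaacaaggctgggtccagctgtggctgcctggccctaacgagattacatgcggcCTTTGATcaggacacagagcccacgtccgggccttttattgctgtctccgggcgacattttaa
Disp1 (chr1:183147732-183147851): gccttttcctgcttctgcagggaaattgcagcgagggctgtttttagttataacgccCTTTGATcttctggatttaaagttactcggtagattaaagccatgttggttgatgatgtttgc
D230030E09Rik (chr12:118530197-118530316): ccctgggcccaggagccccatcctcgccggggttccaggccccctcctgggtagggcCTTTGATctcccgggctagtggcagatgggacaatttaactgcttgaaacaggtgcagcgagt
Gm42449 (chr3:131137237-131137356): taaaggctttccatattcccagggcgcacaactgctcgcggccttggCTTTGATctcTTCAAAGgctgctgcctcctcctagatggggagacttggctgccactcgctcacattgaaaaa
Sp5 (chr2:70475000-70475029): agagccgctattCTTTGATgattgggtagc
Sp8 (chr12:118847125-118847244): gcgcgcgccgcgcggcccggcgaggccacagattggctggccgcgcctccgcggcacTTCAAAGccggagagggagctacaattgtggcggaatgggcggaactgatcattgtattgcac
T (chr17:8434131-8434250): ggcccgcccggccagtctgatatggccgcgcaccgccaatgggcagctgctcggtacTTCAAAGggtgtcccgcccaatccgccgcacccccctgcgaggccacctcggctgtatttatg
Lgr5 (chr10:115586586-115586705): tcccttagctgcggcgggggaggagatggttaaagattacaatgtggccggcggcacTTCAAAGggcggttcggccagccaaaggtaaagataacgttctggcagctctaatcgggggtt
Nkd1 (chr8:88521214-88521333): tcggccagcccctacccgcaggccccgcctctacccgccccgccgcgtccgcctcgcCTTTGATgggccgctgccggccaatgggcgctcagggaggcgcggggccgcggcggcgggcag
Wnt6 (chr1:74770893-74771012): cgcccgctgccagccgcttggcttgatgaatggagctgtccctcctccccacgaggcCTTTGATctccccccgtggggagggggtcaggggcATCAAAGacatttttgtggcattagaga
Hoxa4 (chr6:52190869-52190988): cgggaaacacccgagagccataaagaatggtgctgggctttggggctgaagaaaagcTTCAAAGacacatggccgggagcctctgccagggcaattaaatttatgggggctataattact
Tshz3 (chr7:36699127-36699246): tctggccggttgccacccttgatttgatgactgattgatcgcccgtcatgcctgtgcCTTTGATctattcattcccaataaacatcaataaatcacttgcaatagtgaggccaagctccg
The Gm42449 and Wnt6 windows held 2 cores each. Sp5, a target gene of WNT signalling that encodes a zinc finger repressor, had 3 cores in the 200 bp around its summit, of which the one nearest to the summit is printed. A match is a description of the sequence and not of a bound site.

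Within 200 bp centred on the summit, 258 of the 829 had a TCF/LEF core (31.1%, 95% Wilson interval 28.1 to 34.4%). Windows 2 kb to either side of the same summits held it in 8.44% of 1658 cases, a difference of 22.7 percentage points (95% Newcombe interval 19.3 to 26.1). Windows of the same length at all 93145 distinct TSSs of protein-coding genes, from transcripts of every type, held a core in 4.58%. The median distance from the core to the summit was 22 bp, and 213 of the 258 had a core within 50 bp of it. At least 2 cores were present at 33 summits (3.98%), among them Kdm2b, Cux1 and Nkx6-1. Intervals over summits cover counting error only, since summits are not replicates of a condition.

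TCF/LEF cores were more frequent at these summits than at marked promoters. Promoter summits inside an H3K27ac peak had a core in 15.4% of cases, 15.7 points less often (interval of the difference 12.2 to 19.3), while the 11181 distal summits outside H3K27ac peaks had one in 32.1%, where the difference of −0.959 points had an interval of −4.14 to 2.39. The same order was seen for multiple cores, with 0.776% of promoter summits inside and 4.50% of distal summits outside H3K27ac peaks carrying 2 or more.

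Base composition placed them between these groups. A CpG-rich window (500 bp with a GC content of at least 55% and an observed/expected CpG ratio of at least 0.65), typical of promoters of housekeeping and developmental genes, was found at 169 summits (20.4%, 17.8 to 23.3%). It was found at 64.7% of promoter summits inside H3K27ac peaks, a difference of −44.3 points for outside minus inside (−47.7 to −40.7), and at 0.376% of distal summits outside them, a difference of 20 points (17.4 to 22.9). All distinct TSSs of protein-coding genes were CpG-rich in 36.1% of cases. The core was more frequent in the groups with fewer CpG-rich windows, so the core was also compared within each class of composition. Among CpG-rich windows it was present in 20.1% of summits outside and 12.3% of promoter summits inside H3K27ac peaks, a difference of 7.79 points (2.08 to 14.7), and among the rest in 33.9% and 21%, a difference of 12.9 points (8.06 to 17.7).

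Other promoter and factor motifs were searched in the same windows, on both strands. The GC box GGGCGG, bound by SP and KLF factors, was present at 24.6% of the promoter summits outside H3K27ac peaks, against 49.1% of promoter summits inside them and 3.95% of distal summits outside them. The CCAAT box of the NF-Y complex (CCAAT) was present at 27.7%, against 15.7% and 29.0%, and the E-box CAGCTG of bHLH factors at 16.9%, against 14.5% and 18.6%. For the E-box both differences had intervals that included 0. The homeodomain core TAATTA was present at 12.7% of the summits, against 2.33% of promoter summits inside H3K27ac peaks (difference 10.3 points, 8.10 to 12.8), 17.8% of distal summits outside them (−5.10 points, −7.31 to −2.56) and 6.15% of the windows 2 kb away (6.51 points, 4.07 to 9.17).

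**Figure D2:**
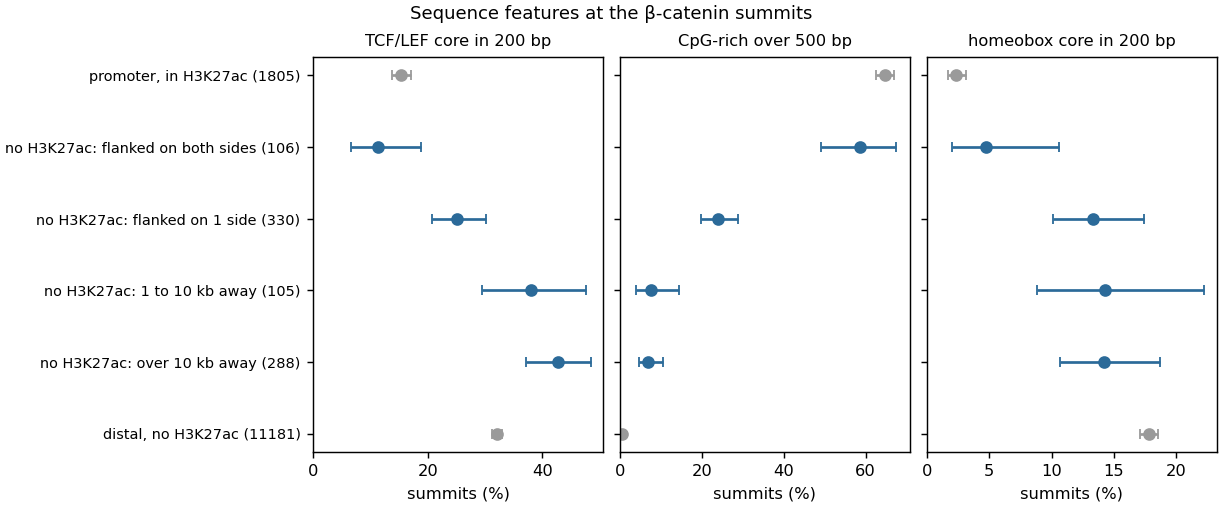
Share of β-catenin summits (horizontal axes, %, with 95% Wilson intervals) with a TCF/LEF core, a CpG-rich window and the homeodomain core, for promoter summits inside H3K27ac peaks, promoter summits outside them by distance to the mark (blue) and distal summits outside them, with the number of summits in brackets. From summits flanked on both sides to those over 10 kb away, the TCF/LEF core goes from 11.3% to 42.7% and CpG-rich windows from 58.5% to 6.94%.

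The distance to H3K27ac divided the summits into unlike groups. The 106 flanked on both sides were the closest to start sites and the richest in CpG. They lay a median of 139 bp from the TSS, 58.5% were CpG-rich, 11.3% had a TCF/LEF core, and 79 were upstream of the TSS. The gap between the H3K27ac peaks that flanked them was narrow, with a median of 292 bp (quartiles 212 and 389 bp). Fzd2 and Fzd1, which encode WNT receptors, Wnt5a, which encodes a ligand of the limb mesenchyme, and Tbx3 and Ccnd1 were in such gaps.

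At the 330 summits with an H3K27ac peak on one side, that peak lay on the side of the TSS for 260 (78.8%, 74.1 to 82.9%). This was so for 159 of 193 upstream (82.4%) and 101 of 137 downstream summits (73.7%). Nearness to a TSS and to H3K27ac defined this class, so these shares are a description, with no share expected without that choice beside them. A core was present at 25.2% of them and 23.9% were CpG-rich.

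The 288 summits over 10 kb from any H3K27ac consensus peak had a core in 42.7% of cases and were CpG-rich in 6.94%. Against the 436 summits with H3K27ac less than 1 kb away (core in 21.8%), the difference in core content was −20.9 points for near minus far (interval −27.7 to −14.0). Restricted to protein-coding genes it was 47.8% of 136 far summits and 22.6% of 349 near ones, a difference of 25.2 points (15.7 to 34.4). The 436 near summits were CpG-rich in 32.3% of cases, and near and far were not compared within classes of composition. A far summit need not mean a gene without the mark. Of these 136 far summits, 53 (39.0%) were at genes with another TSS inside an H3K27ac peak. Among all 546 summits at protein-coding genes, 388 (71.1%) were. Among the highest far summits were those near the TSSs of Gm43473, D230030E09Rik, Gm47677 and Gm42449, which are annotated as noncoding or unclassified transcripts, and of Mlh3, which encodes a DNA mismatch repair protein.

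The gene types differed as well. A TSS of a protein-coding gene was less than 1 kb away for 546 summits (65.9%), and the other 283 (34.1%) were near TSSs of other types only. By the nearest TSS, 118 summits were at lincRNAs, 47 at transcripts of unclassified (TEC) genes, 42 at antisense transcripts, 27 at small nuclear RNAs (snRNAs), 24 at processed pseudogenes, 12 at miRNAs and 9 at small nucleolar RNAs (snoRNAs). An H3K27ac peak lay less than 1 kb from 63.9% of the protein-coding summits and from 30.7% of the others. Core content did not separate them (31.0% and 31.4%, interval of the difference −7.25 to 6.01 points), and CpG content did (28.8% and 4.24%, difference 24.5 points, 19.8 to 28.8).

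At protein-coding genes, summits lay upstream of their TSS more often than promoter summits inside H3K27ac peaks did, in 65.2% against 50.6% of cases (difference 14.6 points, 9.83 to 19.2). Near TSSs of other gene types only, the shares were 47.3% and 48.0%. The rule used the positions of TSSs and of H3K27ac peaks, so these shares describe the chosen summits and are no finding.

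In the annotation, 380 summits (45.8%) were intronic, 262 (31.6%) intergenic, 119 (14.4%) exonic and 68 (8.2%) in a UTR. Summits at most 10 kb apart formed 764 loci, of which 55 held 2 or more. The largest, with 4 summits, spanned chr11:87422978-87427532 at the snRNA gene Rnu1a1 and Tex14, and Ephb3, which encodes a receptor for ephrins that keep cell populations apart, had 3 at chr16:21204440-21211012 with fold enrichments of 4.49, 4.49 and 12.5.

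The height of each summit was given as fold enrichment, the coverage at the summit over the coverage that the peak caller expected locally in the same library, so a summit in a region of broad signal has a low fold for its coverage. The median over the 829 summits was 6.30 (quartiles 5.03 and 8.43, range 1.90 to 30.2) in the consensus list, compared with 5.14 for promoter summits inside H3K27ac peaks and 7.06 for distal summits outside them. It went from 5.78 at summits flanked on both sides and 5.99 with H3K27ac on one side to 6.39 at 1 to 10 kb and 7.03 beyond 10 kb. Core content went with the fold, from 22.8% of summits with a fold below 5 to 28.8% from 5 to 10 and 52.6% of the 133 summits at 10 or above (highest against lowest class, difference 29.8 points, 19.3 to 39.6).

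The replicates gave similar folds at most summits, all of which had a peak in each replicate by the consensus rule. In replicate 1 the fold enrichment ranged from 1.85 to 28.2 with a median of 5.72, and in replicate 2 from 1.85 to 27.8 with a median of 5.8. Both values were within 1.5 times of each other for 756 of the 829 summits (91.2%). The log2 ratio of replicate 2 to replicate 1 had a median of 0.03 and quartiles of −0.21 and 0.26, and the Pearson correlation of the log2 folds across summits, which share both libraries, was 0.812. Neighbouring summits in one replicate peak can share that replicate's value, as both Foxn3 summits did.

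**Figure D3:**
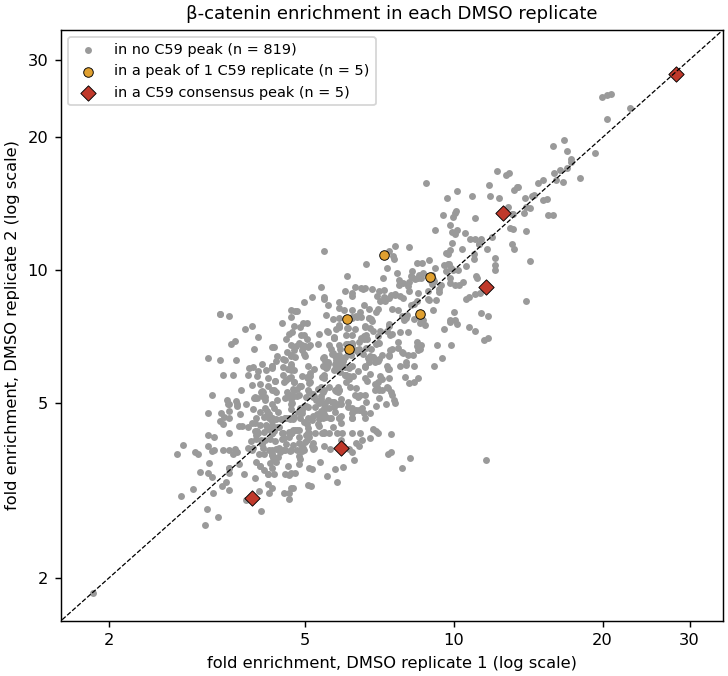
β-Catenin fold enrichment of each promoter summit outside H3K27ac peaks in DMSO replicate 1 (horizontal axis) and replicate 2 (vertical axis), both on log scales, with summits inside a C59 consensus peak as red diamonds and those inside a peak of a single C59 replicate in orange. The summits follow the diagonal over the whole range, and the 5 that were still in a C59 consensus peak run from 3.04 to 28.2 and are not confined to the highest folds.

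The highest summit was in an intron of Ascc3, 141 bp from the start site of one of its transcripts (chr10:50763655), with folds of 28.2 and 27.8 in the replicates. Ascc3 encodes a helicase that acts in DNA repair and ribosome quality control. This summit had no TCF/LEF core, lay 170355 bp from the nearest H3K27ac consensus peak and was one of the few still called after C59. Rnf220, which encodes a ubiquitin ligase, followed with 20.4 and 25 (chr4:117272655, in an exon), 19 bp from an H3K27ac peak. The summit at Fbxl2, an F-box gene, had 20.8 and 25.1 and no core.

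Regulators of chromatin and signalling were also among the first 15. Kdm2b, which encodes a CpG island binding protein that brings Polycomb complexes to DNA, had folds of 19.9 and 24.7 in an intron and 2 cores, between H3K27ac peaks on both sides. Disp1, which encodes the transporter that releases Hedgehog ligands from the cells that make them, had 20.4 and 22.1. Dgkz, which encodes a diacylglycerol kinase, had 16.6 and 15.9 and a CpG-rich window with a core. All 3 genes belong here by their consensus folds, which pool these replicates.

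The other summits of the first 15 were mostly near noncoding transcripts. Gm48397 had folds of 22.7 and 23.3, Gm36325 19.3 and 18.4, and 2900052L18Rik 16.9 and 18.6, all with H3K27ac less than 1 kb away and a core. Far from the consensus peaks, Gm43473 had 15.9 and 19.1 at 767131 bp with no core, and D230030E09Rik had 16.0 and 16.6 at 227548 bp with a core 20 bp from the summit, although both wild-type replicate lists had an H3K27ac peak less than 1 kb from the latter. At Sdr42e1, a dehydrogenase gene, the folds were 18 and 16.2.

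The genes of the WNT pathway were described from lists of ligands and receptors, of target and feedback genes, and of secreted antagonists. Of the 79 genes in these lists, 14 (17.7%, 95% Wilson interval 10.9 to 27.6%) had a promoter summit outside H3K27ac peaks, against 2.45% of all 21728 protein-coding genes (532 genes). The share was highest for the target and feedback genes, with 8 of 23 (34.8%, 18.8 to 55.1%), and each of their 9 summits carried a TCF/LEF core. The list contains genes known for TCF/LEF sites near their promoters and was drawn up with earlier results of these data known, so this count is no independent evidence. The same genes had a promoter summit inside H3K27ac in 26.1% of cases.

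By consensus fold Sp5, Lgr5 and Sp8 came first among target genes, while in replicate 1 Sp8 was below Tcf7l2, Nkd1 and Ccnd1. Sp5 had folds of 13.4 and 15.4 in the UTR of its transcript, 104 bp downstream of the TSS, and the nearest H3K27ac consensus peak was 33720 bp away. Sp8, the related factor of the limb ectoderm that is needed for the apical ridge, had 5.77 and 6.26 (H3K27ac 7685 bp away). T, the Brachyury gene that is a classical WNT target in mesoderm, had 5.46 and 4.70 (27796 bp), and Lgr5, which encodes a receptor for the R-spondins that amplify WNT signals, had 8.13 and 5.53 (65455 bp). These 4 genes had no TSS less than 1 kb from an H3K27ac peak, and within the target list 4 of the 7 genes without H3K27ac at a TSS had a summit, against 0.973% of all 10077 such protein-coding genes.

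The other 4 target and feedback genes had a TSS near H3K27ac, and their consensus folds ran from 3.03 to 6.85. Axin2, which encodes a scaffold of the β-catenin destruction complex, had 2.80 and 3.07 in an intron (chr11:108923095), 680 bp from H3K27ac. Its summit coverage of 42 and 53 fragments was above the third quartiles of 25 and 28, and the coverage expected there was 28.1 in the consensus list. Nkd1, which encodes an inhibitor of Dishevelled, had a pair of summits, with 6.01 and 6.03 at the first and 5.09 and 5.54 at the second. Tcf7l2, one of the TCF genes themselves, had 6.24 and 5.74 at 19 bp from a TSS, and Ccnd1, which encodes cyclin D1, had 5.95 and 6.26. All 5 summits had a core, although that of Ccnd1 was 75 bp from the summit.

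Among ligands and receptors, 6 of 44 genes (13.6%) had such a summit. The highest was upstream of Wnt6, an ectodermal ligand, with 9.62 and 10.9 and H3K27ac 45674 bp away. Wnt5a had 5.52 and 6.03 and Wnt11 4.53 and 4.17. Of the receptor genes, Fzd2 had 5.39 and 5.10 and Fzd1 3.98 and 4.22, and neither had a core. The antagonist Frzb, expressed in limb cartilage precursors, had 5.64 and 6.62 without a core, and was 1 of 17 genes of its list.

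**Figure D4:**
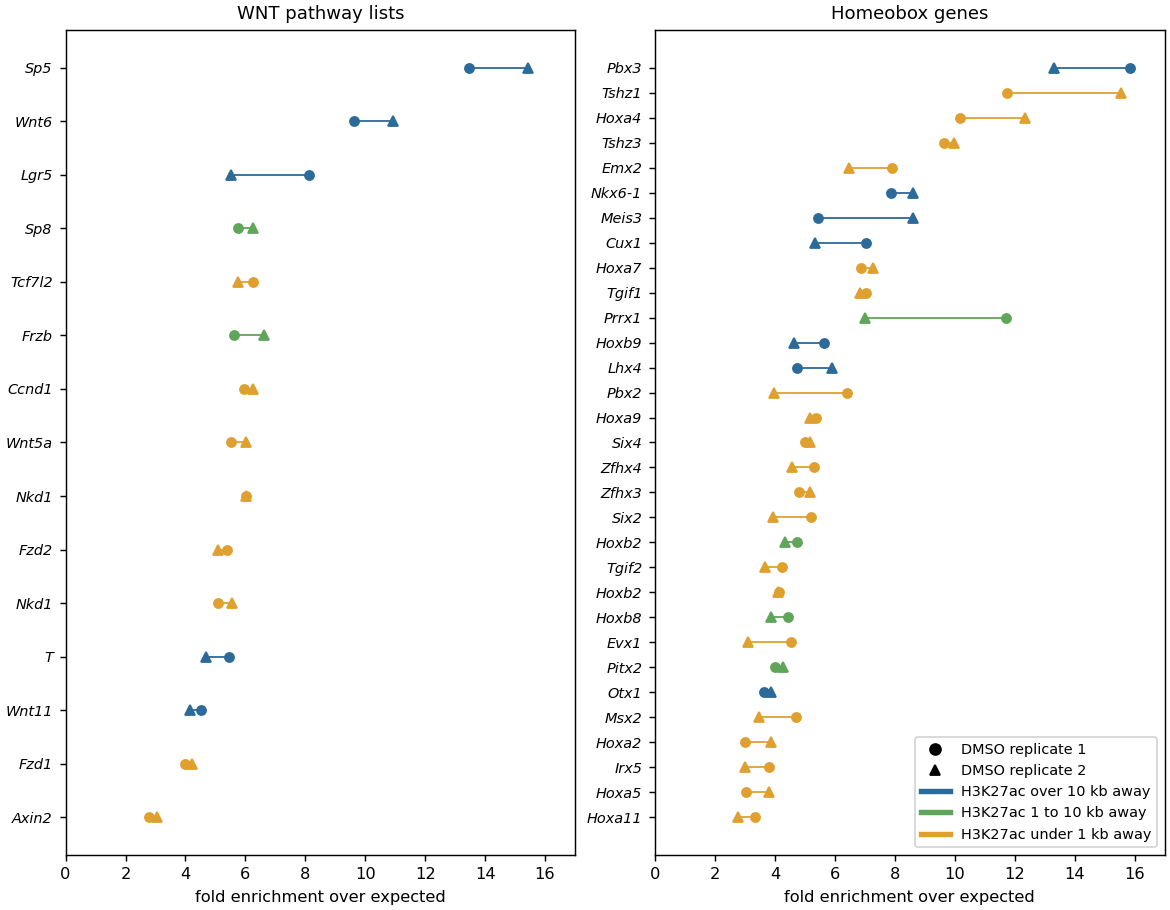
β-Catenin fold enrichment over the coverage expected (horizontal axis) of promoter summits outside H3K27ac peaks at genes of the WNT lists and at homeobox genes (vertical axes), with circles for DMSO replicate 1, triangles for DMSO replicate 2 and colour for the distance to the nearest H3K27ac consensus peak. Sp5 and Wnt6 lead the WNT genes and lie over 10 kb from H3K27ac, Axin2 is lowest, and Pbx3 leads the homeobox genes.

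The pooled genes of 7 transcription factor lists had such summits at a share above the 2.45% of all protein-coding genes. Of the 234 homeobox genes 30 (12.8%, 95% Wilson interval 9.13 to 17.7%) had one, with 31 summits between them, and of the 472 genes in the 7 transcription factor lists 47 did (9.96%, 7.57 to 13.0%). The excess was not seen in every list. None of 57 bHLH genes had such a summit, and the interval for SP, KLF, GLI, ZIC and EGR genes (2.02 to 15.9%) included 2.45%. Zfp genes, kept outside these lists for contrast, had a share of 1.28% (0.547 to 2.96%). A promoter summit inside an H3K27ac peak was present at 4.70% of homeobox genes and at 7.07% of all protein-coding genes. Homeobox genes with H3K27ac less than 1 kb from a TSS had a summit outside the mark in 24 of 83 cases (28.9%), where the share of all 11651 such genes was 3.73%, and those without it in 6 of 151 (3.97%), beside 0.973% of all genes without it. Restricted to genes without it that had a CpG-rich TSS, the shares were 5 of 72 homeobox genes (6.94%) and 2.69% of all 1670 genes. Homeobox genes in Hox clusters had one in 9 of 39 cases (23.1%) and those elsewhere in 21 of 195 (10.8%).

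The homeobox summits were mostly low, with a median fold of 5.23, and 12 of the 31 had a core. Pbx3, which encodes a HOX cofactor, was highest with 15.8 and 13.3 and lay 15292 bp from H3K27ac. Tshz1 and Tshz3, which encode teashirt zinc finger homeodomain proteins, had 11.8 and 15.6, and 9.64 and 9.97. Nkx6-1, known from the ventral neural tube, had 7.87 and 8.62 with 2 cores, 160832 bp from any H3K27ac consensus peak.

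In the HoxA cluster, Hoxa4 had folds of 10.2 and 12.3, Hoxa7 6.86 and 7.27, Hoxa9 5.37 and 5.18, Hoxa2 3.0 and 3.87, Hoxa5 3.02 and 3.82, and Hoxa11, which acts in the forearm, 3.33 and 2.76. Other homeobox genes named here were picked after their values were seen. Prrx1, the mesenchymal marker gene, had 11.7 and 7.01, both above its consensus fold of 6.41, and the replicate values are those of the nearest replicate summit, which may be another one. Msx2, a BMP target of the distal mesenchyme and ridge, had 4.69 and 3.47. The summits of Emx2 (7.90 and 6.47), which is required for the scapula, and of Irx5 (3.79 and 3.0), which acts in the proximal and anterior bud, were in CpG-rich windows without a core.

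Of the other factor families, T-box genes had a summit in 4 of 17 cases (23.5%), Fox genes in 4 of 44 (9.09%), Sox genes in 2 of 19 and Gata and nuclear receptor genes in 4 of 50. Tbx18 had folds of 8.07 and 9.18 and Tbx3, which positions the limb and patterns its posterior side, 4.51 and 6.01. Foxn3 had 11.2 and 11.5, Thra, which encodes a thyroid hormone receptor, 10.4 and 11.1, and Nr4a1 6.48 and 7.82. Sox4 (2.96 and 3.19) and Sox11 (4.02 and 3.15) were near the low end. Among SP, KLF, GLI, ZIC and EGR genes only Sp5, Sp8 and Sp9 had such a summit (3 of 51, 5.88%), while 19.6% had one inside H3K27ac.

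The counts for other pathways were small, and lists of these sizes cannot separate a count of 0 from the 2.45% of all protein-coding genes. None of 57 bHLH genes had a summit outside the mark (upper Wilson limit 6.31%), nor had any of 27 FGF ligands and receptors (12.5%) or of 21 Notch pathway genes (15.5%), although 28.6% of the Notch genes had a promoter summit inside H3K27ac. The list of BMP and TGF-β ligands and antagonists had 2 of 44 (Nog and Bmp5), and the Hedgehog list had 1 of 14 (Gas1). Among lists kept for contrast, the share was 2.04% of ribosomal protein genes, 1.71% of proteasome and mitochondrial ribosome genes, 1.28% of Zfp genes, 0.265% of olfactory receptor genes and 0 of 80 histone genes (upper limit 4.58%). By consensus fold their highest summits were at Rps24 (3.91 and 6.02), Psmd6 (8.43 and 6.85) and Zfp574 (8.48 and 9.74), and Olfr94 (3.50 and 4.27) and Olfr970 (4.28 and 6.04) shared the first place among olfactory receptor genes.

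**Figure D5:**
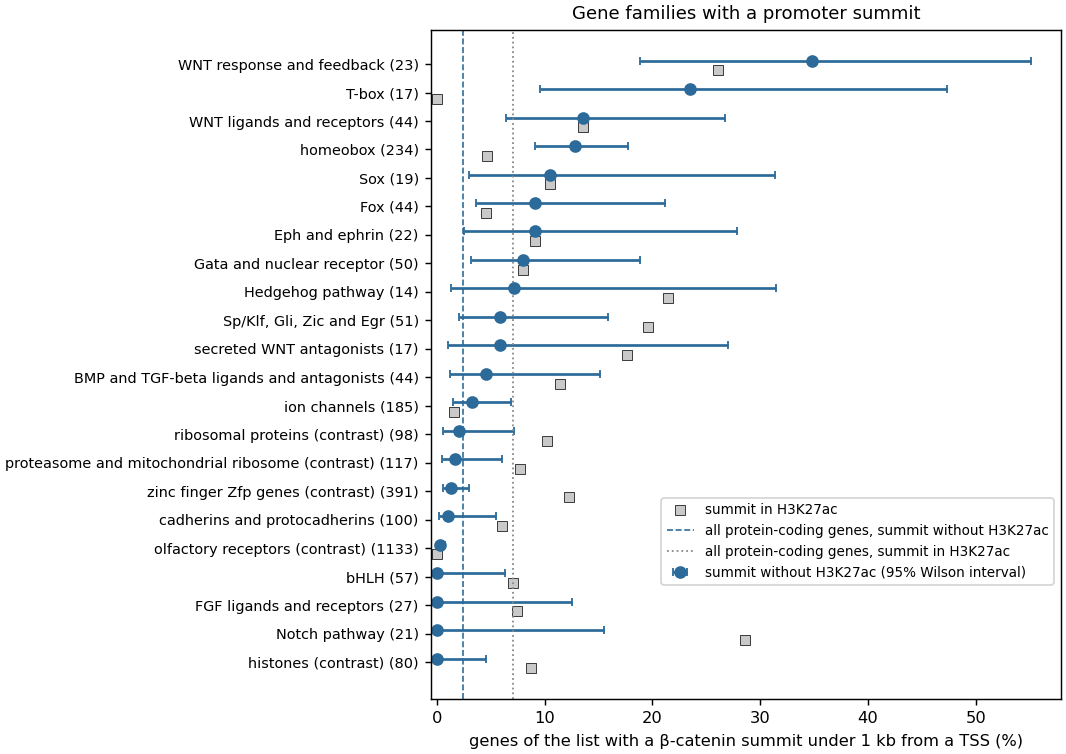
Share of the genes of each list (vertical axis, number of genes in brackets) with a β-catenin summit less than 1 kb from a TSS (horizontal axis, %), outside H3K27ac peaks (circles with 95% Wilson intervals) and inside them (squares), with the shares of all protein-coding genes as vertical lines. WNT target and feedback genes (34.8%), T-box genes (23.5%) and homeobox genes (12.8%) lie to the right of the dashed line at 2.45%, and ribosomal protein and Zfp genes lie at or left of it.

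After C59, 5 of the 829 summits (0.603%, 95% Wilson interval 0.258 to 1.4%) lay inside a β-catenin consensus peak. Over all 16189 summits the share was 1.12%, at promoter summits inside H3K27ac peaks it was 2.66% (difference −2.06 points, −2.97 to −1.03), and at distal summits outside H3K27ac peaks it was 0.617% (difference −0.0140 points, −0.396 to 0.797). The replicate lists held 9 (replicate 1) and 6 (replicate 2) of the summits, and 10 were in at least 1 of them. The calling limit of the C59 list restricts what can be said of the rest. The background coverage was 3.07 in the DMSO and 3.61 in the C59 consensus list. The lowest −log10 p listed was 3.69 in DMSO and 8.92 after C59. At unchanged enrichment 773 summits (93.2%) would have passed the C59 limit, and 768 of these were in no C59 consensus peak. This count used the limit of the pooled list alone and left out the need for a peak in each replicate. A list does not show what coverage remained below the limit.

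The 5 that were still called were mixed in kind. At Ascc3 the replicate folds of 28.2 and 27.8 in wild-type controls stood beside 11.4 and 10.1 after C59. Those at the lincRNA Gm28872, whose summit was 19 bp from its TSS, were 12.6 and 13.5 beside 5.58 and 5.28. At Lman1, which encodes a cargo receptor of the secretory pathway, they were 11.6 and 9.17 beside 4.95 and 4.41. In these 3 genes both C59 replicates were below both wild-type replicates.

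The remaining pair did not show this order of replicates. Rnu1a1, a gene for the U1 snRNA of the spliceosome, had 5.89 and 3.94 in DMSO and 5.05 and 5.82 in C59. Gm10718, whose window was 100% repeat-masked, had 3.9 and 3.04, and 3.84 and 4.45. The consensus fold of Rnu1a1 was lower in C59 (4.63) than in DMSO (5.91), and that of Gm10718 was higher (4.36 and 3.625). Fold enrichment is relative to each library's own expected coverage, and with 2 replicates against 2 the exact permutation test cannot give a two-sided p below 0.33, so these values are descriptions.

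Small RNA genes accounted for 5 of the 10 summits found in any C59 list. Of the 36 summits whose nearest TSS belonged to an snRNA or snoRNA gene, a grouping chosen after the values were seen, 5 (13.9%, 6.08 to 28.7%) were in a peak of at least 1 C59 list, at Rnu1a1, Rnu5g, Gm25099, Gm22068 and Rnu2-10, against 5 of the other 793 (0.631%). Apart from Rnu1a1 these were called in C59 replicate 1 only. The small RNA summits lay downstream of the TSS in 33 of 36 cases and had H3K27ac less than 1 kb away in 31, a TCF/LEF core in 4 and a mostly repeat-masked window in 7 (19.4%, against 3.14% of all 829). Copies of these genes are near-identical, so reads could be assigned to the wrong one, and the part of this in the result was not tested.

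The H3K27ac libraries were compared at the same summits. An H3K27ac replicate peak lay less than 1 kb away for 54.8% and 57.2% of the 829 summits in wild-type controls and for 52.7% and 50.8% after C59. Both C59 libraries were below both wild-type libraries, with a difference of means of −4.22 points (exact permutation test, two-sided p = 0.33, the smallest possible). The rule that chose the summits used the consensus lists of both treatments, which were built from these libraries. This difference is therefore a description only. The difference was −2.05 points without the replicates numbered 2 and −6.39 points without those numbered 1. Over all 16189 summits the DMSO libraries had 38.2% and 40.2% and the C59 libraries 39.9% and 36.4%, and the groups overlapped. The lists of wild-type replicates held 35263 and 37935 H3K27ac summits and those of C59 replicates 37232 and 33180, so C59 replicate 2 had both the shortest list and the lowest share, and the part of list length in the difference was not tested.

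Most summits kept their state in all 4 libraries, with H3K27ac nearby in all for 381 (46.0%) and in none for 303 (36.6%). Over all 16189 summits these shares were 30.6% and 52.1%. For 20 summits (2.41%) H3K27ac was nearby in both wild-type libraries and in neither C59 library, and the reverse was seen for 2 (0.241%), at Dlg2 and Bcl2l11. For all 16189 summits the corresponding shares were 1.72% and 1.14%. The 20 included D230030E09Rik, Gm36120 and Gm35217, with consensus folds of 19, 16.8 and 16.3, both summits of Foxn3, and Evx1, a homeobox gene at the end of the HoxA cluster.

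Summits just inside and just outside the limits of the rule were compared by their values alone, without intervals. The 26 summits 950 to 1000 bp from a TSS had a median fold of 7.62 and a core in 34.6% of cases, and the 24 outside H3K27ac peaks at 1000 to 1050 bp had 6.48 and 33.3%. The 125 summits at most 50 bp outside an H3K27ac peak had a median fold of 5.82, and the 121 promoter summits at most 50 bp inside one had 5.51. The call depends on the consensus lists, and 41 of the 829 summits (4.95%) were inside a peak of at least 1 of the 4 H3K27ac replicate lists.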

How the data were processed

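ChIP-seq against β-catenin and H3K27ac was done in 2 replicates per treatment on pooled forelimb buds, and the samples were grouped by their labels. After trimming with Cutadapt, the authors aligned reads to mm10 with Bowtie2 2.4.5, discarded alignments of low mapping quality and called peaks and summits with MACS2 2.2.7.1 without input. For each consensus list, duplicates were first taken out with Picard 2.27.4, the replicates were brought to equal size and called jointly, and a summit stayed only where each replicate had a peak. The deposited lists give the fold enrichment of each summit over the expected coverage and its −log10 p-value and −log10 q-value. Read counts and input lists were not used here. Sequencing depth was recovered from fold and p, which together give the coverage observed and expected (solutions within 0.01 of the deposited −log10 p). The background coverage was 1.57 and 1.81 in the DMSO and 1.83 and 1.82 in the C59 β-catenin replicates.

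TSSs were those of all transcripts of GENCODE M21, whereas the authors used a custom annotation. Summits in the ENCODE blacklist were not removed here. Replicate values are those of the nearest summit in a replicate peak that holds the consensus summit. Sequence came from the mm10 genome, with motifs counted in 200 bp and CpG content in 500 bp. Shares were given with 95% Wilson intervals and differences with 95% Newcombe intervals, and libraries were compared by an exact permutation test. The scripts ran in Python 3.11.15 with pandas 2.3.3, numpy 2.4.6, scipy 1.17.1, pysam 0.24.0 and matplotlib 3.10.9, and were tested on simulated data. The summits, the gene lists and the tests were chosen with earlier results of these data known.

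Genes named were drawn from the 15 highest summits, all summits in a C59 consensus peak and the WNT lists. Further sources were the 3 highest summits of each transcription factor list and the highest of each contrast list. The 10 highest summits over 10 kb from H3K27ac were also used. Some genes that this rule covers are not named. The other homeobox, signalling and small RNA genes, the genes whose H3K27ac differed between treatments and those of the largest loci were named after their values were seen. Alternatives covered the TSS limit and annotation, a stricter q, each replicate left out, the H3K27ac lists and distance, the windows and the loci.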

Additional observations from a re-analysis of the deposited data

How the results depend on the processing

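Of 58 alternatives, 40 were counted as leaving a result unchanged. A share counted as unchanged when it stayed inside the interval of its main value. The only difference recomputed was that in H3K27ac between treatments. This difference had no interval and counted as unchanged when its sign held, as it did in every alternative. Differences between groups of summits were not among the alternatives. The share of summits that were CpG-rich moved to 26.6% with a TSS limit of 500 bp, 11.7% with 2500 bp, 34.3% with TSSs of protein-coding transcripts only, 7.12% over 1 kb from H3K27ac and 27.3% with a GC content of 50% and an observed/expected ratio of 0.6. The share with H3K27ac less than 1 kb away moved to 56.7%, 39.6% and 71.5% under the same 3 choices of TSS, and to 63.4% with peaks of any of the 4 H3K27ac replicates. The share with a TCF/LEF core moved to 41.5% over 1 kb from H3K27ac and to 25% and 36.3% in windows of 100 and 400 bp. Over 1 kb from H3K27ac, the share of homeobox genes with a summit moved to 4.70% (all genes 0.865%), and the share of summits inside a C59 peak to 0.254% (1 of 393).

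With the list of a single DMSO β-catenin replicate in place of the consensus, the range without either replicate was 24.8 to 27.2% for the core, 21.7 to 24.7% for CpG-rich windows, 51.7 to 51.8% for H3K27ac less than 1 kb away, and 15.8 to 18.4% for homeobox genes, with 3.70 to 4.87% of all genes. The core at 24.8%, the homeobox share at 18.4% and a share inside C59 peaks of 0.325% came without DMSO replicate 1. Without C59 replicate 2 the share inside a C59 peak was 1.09%, so the range over these lists was 0.325 to 1.09%. The C59 minus DMSO difference in H3K27ac ranged from −6.39 to −2.05 points without 1 replicate number, and the smaller value is the one without replicate 2 of both treatments. With the replicate number as a block it stayed at −4.22 points, with an exact p of 0.50, the smallest that 2 pairs allow. Nothing in the labels says that equal numbers mark a shared litter or day. The causes of these shifts were not tested.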

Other observations

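The main limits are those of lists. A summit outside an H3K27ac peak can still have acetylation below the calling threshold, in all cells or in a few of them. GENCODE M21 includes many transcripts of unclassified and noncoding genes, and 283 of the 829 summits are promoter summits through these alone. A TSS in the annotation need not be used in the limb bud, and no transcript levels enter these values. The 23 summits on chromosome 18 and the 10 on chromosome X are included in every count, and no sequence from chromosome 18 is printed.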
